A study of Mus musculus with 33 samples.

Results

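Imprinted genes are expressed mainly from the allele inherited from 1 parent. The 36 genes described here are mouse imprinted genes from 16 domains of clustered or single genes, taken by name from a table of 24391 genes, and all 36 were found in it. Their RNA was followed in mouse embryonic stem (ES) cells labelled RepB and WT (wild type), both from a cross between CAST/Ei and 129/Sv/Jae, and reads that cover a strain variant were given to an allele called cas (CAST/Ei) or mus (129/Sv/Jae). RepB is named after Repeat B of Xist, the noncoding RNA that silences an X chromosome in female cells. What was edited, and on which Xist allele, is not described in the labels, and neither is the parent that gave each strain's chromosomes, so a cas share cannot be read as maternal or paternal. Each line is represented by 1 library at day 0, from ES cells kept with LIF on irradiated feeder fibroblasts, and by 1 library on each of 5 days of differentiation (5, 6, 7, 8 and 10), for which feeders were removed and cells were grown first as floating embryoid bodies and later attached to gelatin. There were no replicate cultures, and it is not given whether either line is 1 clone.

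In mammals imprinting is set in the germ line by DNA methylation at control regions, which is then kept on 1 parental copy through early development by maintenance methylation and by zinc-finger proteins such as ZFP57. Many imprinted genes act on fetal and placental growth. Paternally expressed genes such as Igf2 and Peg10 tend to promote it, and maternally expressed genes such as Igf2r, Cdkn1c and Grb10 tend to restrain it. ES cells are known to lose or alter imprints in culture, and some imprinted genes are imprinted only in certain tissues, such as Ube3a in neurons.

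Library totals ran from 3594551 to 17773138 counts, and on days 5 to 10 WT libraries were 2.065 to 3.355 times as deep as RepB libraries of the same day. Between 25.5% and 26.7% of counts in a library could be given to an allele. Levels are counts scaled to a common library total (CPM), and 3 counts, the least that bounds a gene with no count, correspond to 0.169 to 0.835 CPM. Xist stood at 108 CPM at day 0 and 1200 to 1608 CPM later in RepB, and at 393 CPM at day 0 and 819 to 1374 CPM later in WT, which does not check the edit of its Repeat B. The labels call the cells ES cells on all days. The summed level of 5 ES cell markers was 4219 CPM at day 0 and 339 CPM at day 10 in RepB, against 3780 and 207 CPM in WT, and was higher in RepB on each of the 5 later days. The 10 fibroblast markers, Col1a1 among them, summed to 1036, 66.3, 171, 992, 3188 and 13830 CPM in RepB in order of day, and to 934, 83.4, 143, 756, 1615 and 9326 CPM in WT. In bulk libraries such as these, fewer cells of a type and less RNA per cell cannot be told apart.

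The starts of 4 genes named in the allelic and level results below are shown, though those results come from read counts and not from these sequences. Ndn, Magel2 and Peg12 are paternally expressed genes of the Snrpn cluster that could be read by allele, and Peg3 shares its start region with Usp29. Each window holds 250 bases before and 50 after the RefSeq start (GRCm38.p6, 5′ to 3′ on the gene's strand), with every CG, the dinucleotide that carries DNA methylation, in capitals. The windows are chr7:62348027-62348326 (plus strand), chr7:62376729-62377028 (plus), chr7:62464461-62464760 (minus) and chr7:6730370-6730669 (minus).
Ndn: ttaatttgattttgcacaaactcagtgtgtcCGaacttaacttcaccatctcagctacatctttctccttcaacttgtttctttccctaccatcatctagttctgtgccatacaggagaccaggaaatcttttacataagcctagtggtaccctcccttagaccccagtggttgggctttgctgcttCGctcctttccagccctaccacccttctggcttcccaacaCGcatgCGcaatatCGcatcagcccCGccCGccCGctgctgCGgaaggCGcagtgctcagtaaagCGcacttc
Magel2: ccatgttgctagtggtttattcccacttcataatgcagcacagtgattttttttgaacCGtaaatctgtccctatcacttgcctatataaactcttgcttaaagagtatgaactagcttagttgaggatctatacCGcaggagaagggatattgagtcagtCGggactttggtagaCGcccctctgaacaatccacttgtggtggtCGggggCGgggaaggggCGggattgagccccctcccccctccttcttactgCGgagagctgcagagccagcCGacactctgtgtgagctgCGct
Peg12: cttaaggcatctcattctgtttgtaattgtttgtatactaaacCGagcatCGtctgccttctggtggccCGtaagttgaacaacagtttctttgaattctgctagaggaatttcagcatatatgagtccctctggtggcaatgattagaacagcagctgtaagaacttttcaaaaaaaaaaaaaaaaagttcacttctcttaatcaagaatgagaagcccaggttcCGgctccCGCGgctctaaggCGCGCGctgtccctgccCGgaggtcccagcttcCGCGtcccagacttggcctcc
Peg3: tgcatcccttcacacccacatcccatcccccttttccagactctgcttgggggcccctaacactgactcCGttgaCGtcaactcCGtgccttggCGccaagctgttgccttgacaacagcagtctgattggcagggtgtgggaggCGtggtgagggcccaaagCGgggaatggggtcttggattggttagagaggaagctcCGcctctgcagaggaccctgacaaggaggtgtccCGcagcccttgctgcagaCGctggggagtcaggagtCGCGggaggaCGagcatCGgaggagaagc
They hold 11, 10, 12 and 13 CG, and the median over all 32851 RefSeq windows of this length was 7. Of those windows, 41.4% held at least as many as Ndn, 43.5% as many as Magel2, 39.6% as many as Peg12 and 37.9% as many as Peg3. Usp29, on the plus strand at chr7:6730333-6730632, starts 164 bases from Peg3, and its window overlaps that of Peg3 by 263 bases. The letters TGCCGC, the core of the ZFP57 motif, were searched on both strands. They occur in none of these 5 windows. Of the 46 windows available for 30 of the imprinted genes, 21.7% hold them, against 11.6% of all windows. The median was 12.5 CG in those 46 windows and 7 over all windows. The letters themselves hold a CG, and the part of CG number in this difference was not tested.

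None of the imprinted genes that could be judged by allele was counted as monoallelic, and both strains were read from each of them. A share was judged only where at least 10 other genes within 10 Mb, each with at least 20 allelic counts at day 0 in each line, had a median cas share at that day of 25% to 75% in RepB and in WT. By this rule 10 of the 36 genes lay where both strains were present, in 4 places, namely Snrpn, Ndn, Magel2, Peg12 and Ube3a on chromosome 7, Inpp5f further along the same chromosome, Peg10, Sgce and Asb4 on chromosome 6 and Gnas on chromosome 2. Snrpn, which encodes a splicing protein, had 12 counts in all 12 libraries and 3 allelic counts, so 9 genes were left with at least 50 allelic counts in each line. Counted as monoallelic was a pooled cas share of at most 10% or at least 90%. Among the 9, 0 reached that in RepB and 0 in WT, while 3.36% of 3448 other autosomal genes in both-strain regions did in RepB and 3.44% of 3774 did in WT. Regions set by such wide windows can also hold genes that carried mus almost alone. With regions set by the 3 nearest genes on each side, the background was 0.987% of 3241 genes in RepB and 0.935% of 3528 in WT. The pooled shares of the 9 genes ran from 42.7% (Gnas) to 70.6% (Peg10) in RepB and from 37.7% (Gnas) to 69.8% (Peg10) in WT.

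In the Snrpn cluster of chromosome 7 (Ndn first listed exon 69493163 to 69494813, mm9), Ndn, Magel2 and Peg12, known as paternally expressed, were read from both strains. Neighbouring genes had a median cas share of 51.7% in RepB and 52.2% in WT at day 0. Ndn, which encodes the MAGE-family protein necdin, gave cas shares of 43.6, 65.4, 65.1, 59.5, 59.02 and 46.4% in RepB, against 50, 65.4, 62.3, 56.96, 61.3 and 44.96% in WT, in order of day. Pooled over days these were 53.6% (95% interval 48.1 to 59.0) in RepB, from 179 cas and 155 mus counts, and 54.7% (50.7 to 58.7) in WT, from 338 and 280 counts. The lowest Ndn share of any library was 43.6%, so both alleles were read throughout in both lines, and its shares were above the neighbours' median in 8 of 12 libraries, with the median inside 9 of 12 intervals. Magel2, another MAGE-family gene, was nearly silent at day 0 and reached at least 10 allelic counts in 8 libraries, with cas shares of 56, 49.02 and 29.4% at days 5, 6 and 7 in RepB, against 49.2, 55.9, 46.8, 30.4 and 61.5% at days 5, 6, 7, 8 and 10 in WT. Its pooled share was 47.3% (38.4 to 56.3) in RepB, from 61 cas and 68 mus counts, and 50.9% (46.2 to 55.5) in WT, from 236 and 228 counts. The intervals of all 8 libraries for Magel2 held the neighbours' median.

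Peg12, an intronless gene also known as Frat3, had cas shares of 51.4, 72.7, 72, 72.7, 68.97 and 58.1% in RepB, against 56.2, 61.9, 58.9, 64.1, 47.5 and 55.8% in WT, in order of day. The RepB share was higher than the WT share on each of the 5 days of differentiation, on 11 to 31 allelic counts in RepB, and lower at day 0. Its shares lay above the neighbours' median in 10 of 12 libraries, by 10.7 points on average, with the median inside 10 of 12 intervals and 6 of 12 shares inside the 10% to 90% range of the neighbours. Pooled, Peg12 stood at 64.1% (55.9 to 71.6) in RepB and at 57.1% (51.7 to 62.4) in WT, and the 2 intervals overlapped. Ube3a, a ubiquitin ligase known to be imprinted in neurons, had cas shares of 45.1, 50, 43.6, 41.7 and 56.2% at days 0, 5, 6, 7 and 10 in RepB, against 43.9, 45.4, 45.6, 62.8, 37.04 and 40.3% in WT. Its pooled shares were 46.2% (39.2 to 53.4) in RepB and 45.5% (40.5 to 50.5) in WT. In each of these 11 libraries the interval held the neighbours' median.

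At the start of chromosome 6 (Peg10 first listed exon 4697306 to 4697578, mm9) the cas allele led for the imprinted genes and for their neighbours alike. The 21 neighbouring genes had a median cas share of 67.6% in RepB and 67.3% in WT at day 0. Peg10, a retrotransposon-derived gene needed in the placenta, was the deepest, with 18448 cas and 7677 mus counts in RepB and 40464 and 17506 in WT. Its cas shares were 73.9, 76.8, 73.3, 70.5, 68.7 and 68.5% in RepB, against 71.2, 73.7, 74.1, 69.5, 69 and 68.04% in WT, in order of day. They were highest at day 5 in RepB and at day 6 in WT and lowest at day 10 in both lines, and they lay above the neighbours' median in 11 of 12 libraries, by 4.11 points on average, and stayed within the 10% to 90% range of the neighbours in 12 of 12. The median itself was inside 2 of its 12 intervals, which are narrow at this depth. Pooled, Peg10 stood at 70.6% (70.1 to 71.2) in RepB and 69.8% (69.4 to 70.2) in WT.

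Sgce, which encodes epsilon-sarcoglycan and starts beside Peg10, had cas shares of 56.1, 65.2, 66.04, 63.95, 63.1 and 60.7% in RepB, against 63.6, 72.1, 64.9, 71.6, 66.1 and 65.1% in WT, in order of day. All 12 of its intervals held the neighbours' median, and its pooled share was 62.5% (58.6 to 66.4) in RepB and 66.9% (64.4 to 69.2) in WT. Asb4, an ankyrin-repeat protein gene known as maternally expressed, had a wide range of shares. Its cas shares were 90.5, 50.5, 64.8, 66.7 and 71.3% at days 0, 6, 7, 8 and 10 in RepB, against 82.4, 47.5, 64.8, 59.04 and 70.7% at days 0, 6, 7, 8 and 10 in WT. The day 0 library of RepB, at 19 cas and 2 mus counts (95% interval 69.6 to 98.8), was the only library with at least 10 allelic counts to pass 90% for any of these 9 genes, and the WT share at day 0 rested on 14 and 3 counts. At day 6 both lines were near equal shares, at 50.5% from 93 allelic counts in RepB and 47.5% from 179 in WT. This was below the neighbours' median of that day, 70.4% in RepB and 67.5% in WT, which lay outside both intervals. Over the 10 libraries the median was inside 4 intervals, and 6 shares were inside the neighbours' 10% to 90% range. Over all days Asb4 stood at 65.2% (61.0 to 69.2) in RepB and 63.8% (61.0 to 66.5) in WT.

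The remaining judged genes, both known for imprinting of particular transcripts or in particular tissues, were read from both alleles as well. Inpp5f, a phosphoinositide phosphatase gene, had cas shares of 62.8, 56.8, 53.5, 50.7, 52.8 and 60.7% in RepB, against 52.8, 52.9, 55.1, 49.7, 59.5 and 51.5% in WT, in order of day. These were above the neighbours' median in 12 of 12 libraries, by 6.65 points on average, with the median inside 10 of 12 intervals. The lower end of the neighbours' 10% to 90% range was 1.13% to 3.66% cas. This window thus also holds genes that carried mus almost alone, and they lower the median with which Inpp5f was compared. Gnas, which encodes the stimulatory G protein alpha subunit, had few reads over variants for its level, 68 allelic counts in RepB and 170 in WT. Its cas shares were 41.2 and 47.1% at days 8 and 10 in RepB, against 41.2, 34.5, 53.3, 28.3 and 31.7% at days 5, 6, 7, 8 and 10 in WT. The pooled share was 42.7% (30.7 to 55.2) in RepB and 37.7% (30.3 to 45.4) in WT, beside neighbours' medians of 42.0% and 43.5% at day 0. The lower end of the 10% to 90% range of these neighbours was 0% to 0.205%, so the same limit holds for Gnas. By the 3 nearest genes on each side, Inpp5f and Gnas still lay in both-strain regions.

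**Figure D1:**
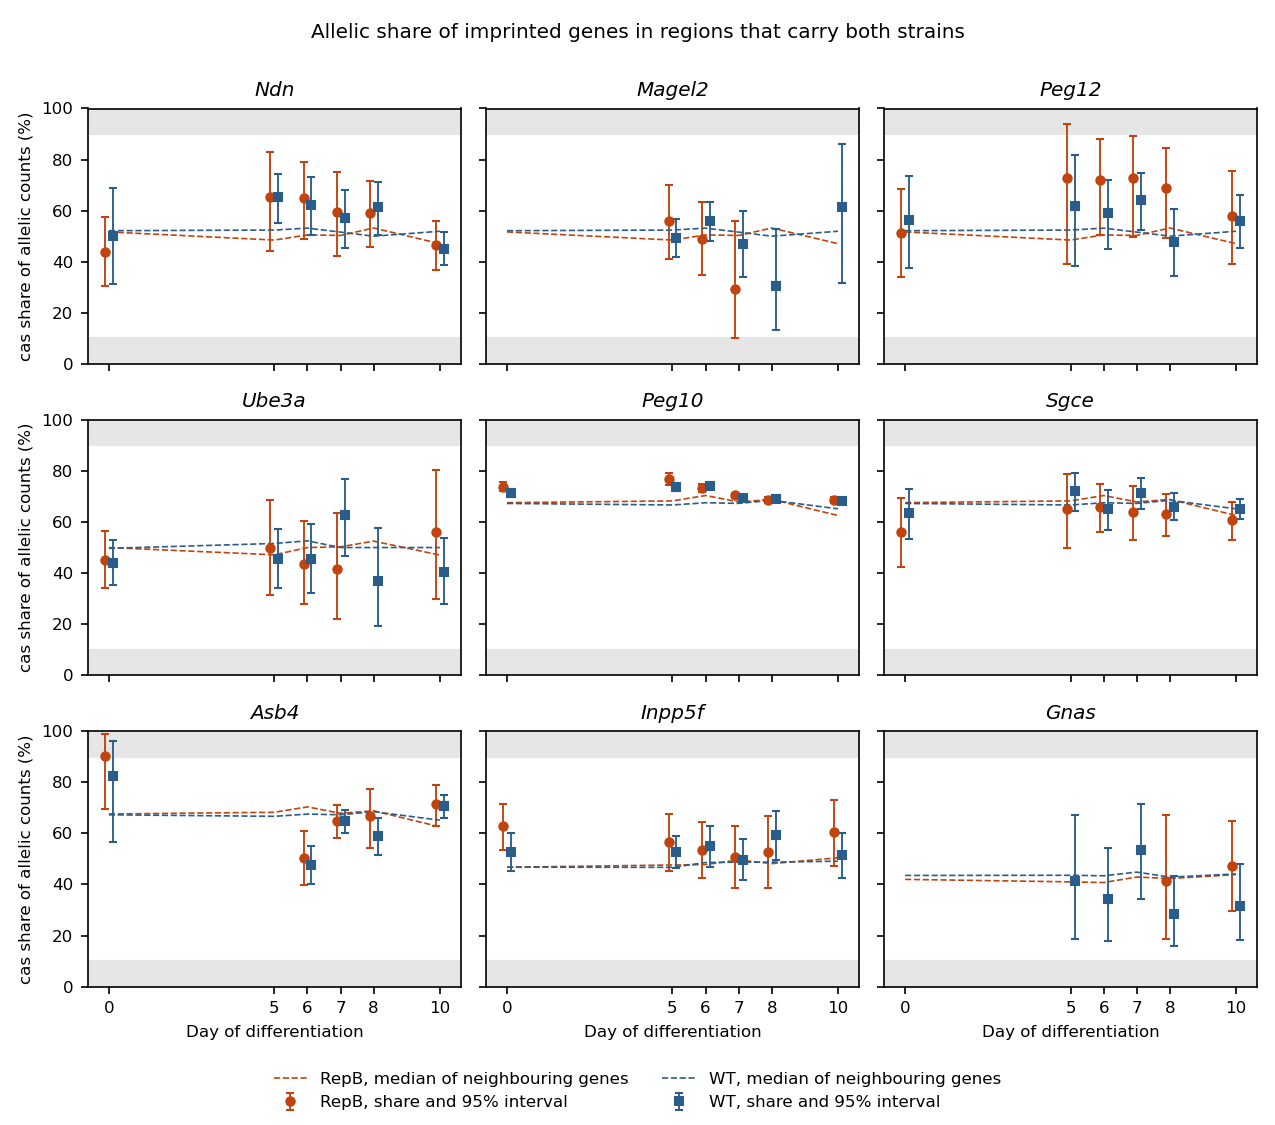
The cas share of allelic counts in percent (y axis) against the day of differentiation (x axis) for 9 imprinted genes in regions that carry both strains, with circles for RepB and squares for WT in libraries with at least 10 allelic counts, bars for exact 95% intervals and dashed lines for the median of the neighbouring genes. Shares lie around the neighbours' medians and outside the grey zones (at most 10% and at least 90%), except Asb4 at day 0 in RepB, at 90.5%.

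Among the judged genes, no difference in allelic share was called between the lines or between day 0 and the mean of days 5 to 10. Differences among days 5 to 10 were not tested, so steady shares over these days cannot be read from this. In edgeR's quasi-likelihood test on cas and mus counts, whose p reflects the steadiness of a difference from day to day within 1 time course per line, 0 of 8 judged genes with enough counts differed between RepB and WT over days 5 to 10. The background was 2.24% of 10332 genes on all chromosomes, and 0.187% of 3216 genes in both-strain regions. The log2 odds of cas over mus, RepB over WT, ran from -0.25 ± 0.21 SE (Sgce) to 0.69 ± 0.46 (Peg12), and Peg10, the most precise, stood at 0.05 ± 0.08. Days 5 to 10 differed from day 0 for 0 of the 7 genes with allelic counts at day 0 in both lines (background 8.06%, or 6.56% in both-strain regions), with Asb4 furthest off at -1.49 ± 0.89. For 0 of 7 did RepB and WT differ in their change since day 0 (background 1.11%, or 0.187%). In these 3 comparisons 0 genes had an unadjusted p under 0.05 in edgeR, and no second tool was tried on alleles. The lowest adjusted p was 0.471 (Asb4, days 5 to 10 over day 0), and the lowest under any alternative was 0.0838. The standard errors of Peg12, Ube3a and Magel2 exceed 0.4 on the log2 odds scale, so moderate differences in their shares were not detectable at this depth.

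The other 26 imprinted genes lay where neighbouring genes carried mus almost alone, with medians of at most 6.77% cas at day 0 in either line, and their shares were not judged. Of these, 23 had at least 50 allelic counts in each line, and their cas shares ran from 0% to 4.65%. H19, for example, gave 63 cas and 19565 mus counts in RepB and 124 and 34423 in WT, Peg3 gave 38 and 17326 in RepB and 111 and 37104 in WT, and Igf2r gave 2 and 822 in RepB and 9 and 1419 in WT. Rian stood highest among the 23, at 4.65% in RepB and 4.51% in WT, beside neighbours' medians of 0.174% and 0.366%. Its cas share over days 5 to 10 was 5.14% (189 cas and 3485 mus counts), against 2.36% at day 0 (19 and 785), in RepB, and 4.76% (469 and 9391), against 2.13% at day 0 (22 and 1012), in WT. It was the 1 gene called in allelic share against day 0 by edgeR among 14 tested of these 26 (log2 odds 1.12 ± 0.25 SE, adjusted p = 0.000197), and the call was lost after thinning to equal allelic depth (log2 1.56, adjusted p = 0.119). Day 0 cells were grown on feeder fibroblasts. The fibroblast markers summed to 1036 CPM at day 0 and 66.3 CPM at day 5 in RepB, and to 934 and 83.4 CPM in WT. The part of feeder reads in the day 0 shares, of Rian or of the judged genes, was not tested. Between the lines 0 of 20 tested of these 26 genes were called by edgeR, and 1 had an unadjusted p under 0.05. Nnat, a proteolipid gene, had 8 cas and 7 mus counts in RepB and 22 and 39 in WT, and was not judged either.

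Mest and Copg2 lie beside a change of strain along chromosome 6. Mest, a hydrolase-like gene known as paternally expressed (first listed exon 30683506 to 30683613 on chromosome 6, mm9), gave 27 cas and 3628 mus counts in RepB and 84 and 9338 in WT. Copg2, a coat protein subunit gene that overlaps the end of Mest, gave 1 and 681 in RepB and 8 and 1454 in WT. Both would be counted as monoallelic in both lines if neighbours were taken within 5 Mb, where the day 0 median around Mest was 40.7% in RepB and 40.4% in WT, rather than 10 Mb, where it was 6.77% in RepB and 5.44% in WT. The strain changes, however, just before Mest. Tmem209, whose first listed exon starts at 30431233, had a cas share of 67.4% in RepB and 66.7% in WT, whereas Cep41, at 30603457 and still before Mest, had 0% of 155 allelic counts in RepB and 1.36% of 295 in WT. The 10 informative genes that follow Mest had a median of 0.591% in RepB and 0.697% in WT and at most 6.58% in either line.

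**Figure D2:**
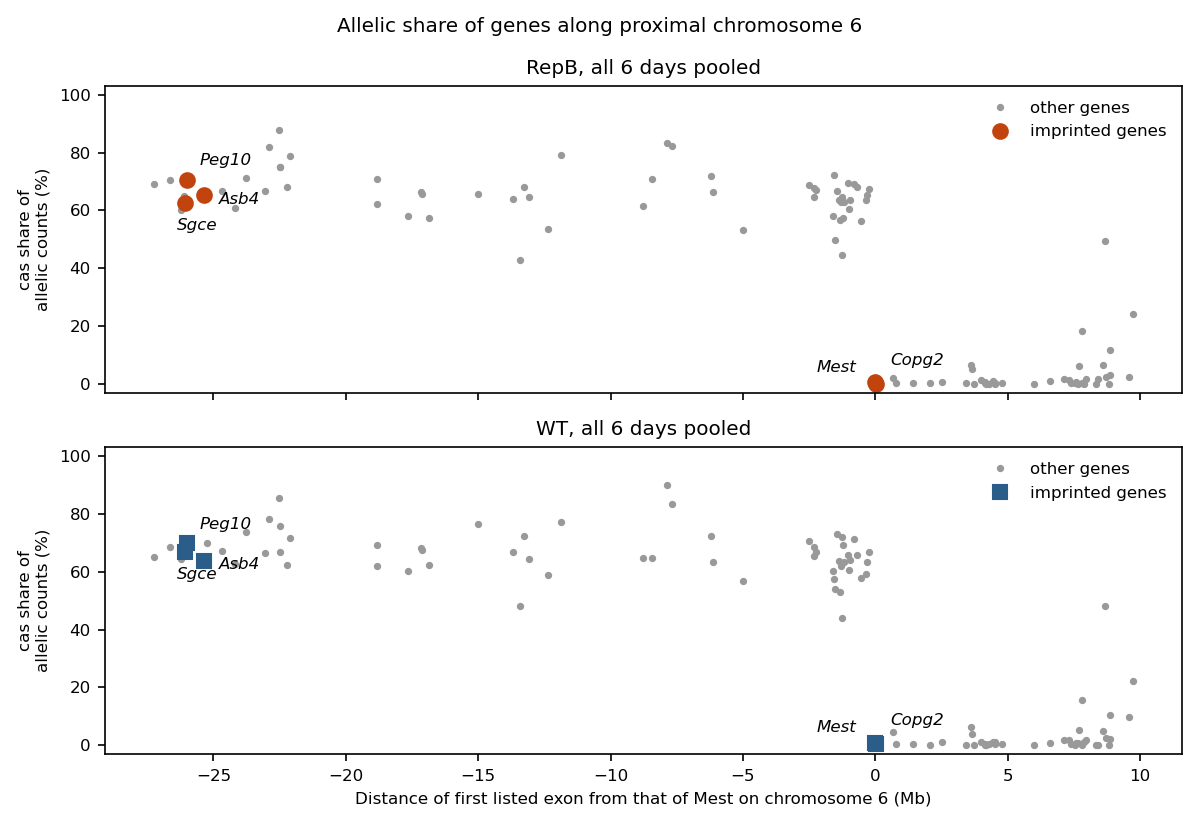
The cas share of allelic counts in percent, pooled over 6 days (y axis), of genes on the first part of chromosome 6 against the distance of their first listed exon from that of Mest in Mb (x axis), for RepB above and WT below, with grey points for other genes and large symbols for imprinted genes. Peg10, Sgce and Asb4 lie among neighbours with a day 0 median of 67.6% in RepB and 67.3% in WT, and Mest and Copg2 lie past the point where shares drop to a median of 0.591% in RepB and 0.697% in WT.

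Most imprinted genes changed in level with differentiation. In edgeR's quasi-likelihood fit of total counts, 25 of the 35 genes that passed the low-count filter were higher over days 5 to 10 than at day 0, 7 were lower and 3 (Zim1, Ube3a and Plagl1) were not called. Of all 15179 genes tested, 64.1% were called, 31.7% higher and 32.3% lower. The median log2 change of the imprinted genes was 0.71, against 0.01 over all genes tested, and the range was -4.61 (Grb10) to 5.54 (Magel2). For 15 genes all 10 libraries of days 5 to 10 lay above both day 0 libraries (background 16.1%), and for 2, Grb10 and Igf2r, all lay below (background 21.7%). A further 8, Igf2, Cdkn1c, Peg12, Asb4, Dlk1, Plagl1, Slc38a4 and Cd81, were below day 0 at day 5 and above it at day 10 in both lines (background 10.5%). The p of this comparison rests on how the RepB/WT ratio varied from day to day, and no time course was repeated. Per kilobase of exon and averaged over the 12 libraries, H19 (1410 CPM per kb), Peg10 (594), Mest (491) and Peg3 (349.9) had the highest levels.

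H19 and Igf2, a maternal noncoding RNA and the paternal growth factor gene next to it on chromosome 7, are the textbook pair of reciprocal imprinting. H19 had 111, 270.5, 524, 3717, 9613 and 9018 CPM in RepB, against 171, 287, 342, 2349, 6209 and 6090 CPM in WT, in order of day. It was above day 0 in all 10 later libraries and reached 81.1 times its day 0 level at day 10 in RepB, and 35.6 times in WT (days 5 to 10 over day 0, as in the parentheses that follow, log2 3.79 ± 0.18 SE, adjusted p = 6.34e-09). Igf2 had 61.4, 4.91, 20.6, 172, 596 and 816 CPM in RepB, against 63.6, 6.30, 21.1, 166, 322 and 625 CPM in WT. It was lowest at day 5 in both lines and highest at day 10, 13.3 times the day 0 level in RepB and 9.82 times in WT (log2 0.64 ± 0.18 SE, adjusted p = 0.00712). The 9 endoderm markers, all detected, summed to 11.1 CPM at day 0 and 649.5 CPM at day 10 in RepB, against 10.8 and 475 CPM in WT. The largest part at day 10 was Gata6, at 256 CPM in RepB and 291 CPM in WT. Amn, by contrast, fell from 3.22 CPM at day 0 to 0.801 CPM at day 10 in RepB, and from 2.84 to 0.588 CPM in WT. The summed fibroblast markers, like Igf2, were lowest at day 5 and highest at day 10, a course that 5 of the 10 markers followed in RepB and 5 in WT. Thy1 instead was highest at day 0 and lowest at day 10 in both lines. The part of either list in the levels of H19 and Igf2 was not tested. Without day 10 the Igf2 change was log2 -0.11, and without day 7, 8 or 10 it was not called.

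In the neighbouring domain of chromosome 7, named here after the noncoding RNA Kcnq1ot1, Ascl2, Cdkn1c, Phlda2 and Cd81 were lower over days 5 to 10 than at day 0 and Kcnq1ot1, Nap1l4 and Tssc4 were higher. Kcnq1ot1 itself had 51.3, 77.6, 66.6, 75.4, 70.7 and 79.6 CPM in RepB, against 46.5, 49.1, 59.8, 98.3, 115 and 85 CPM in WT and rose (log2 0.71 ± 0.19 SE, adjusted p = 0.00517), but its reads lie within Kcnq1 on the opposite strand and the value is uncertain, as no source states whether strand was used in counting. Ascl2, a transcription factor gene of the trophoblast, had 13, 3.02, 2.58, 2.26, 2.78 and 13.4 CPM in RepB, against 12.7, 2.70, 1.67, 2.58, 2.19 and 5.49 CPM in WT. It was lower from day 5 on (log2 -1.93 ± 0.20 SE, adjusted p = 4.96e-06), though the RepB level at day 10 was again at that of day 0. Cdkn1c, a cyclin-dependent kinase inhibitor, had 10.6, 7.93, 7.88, 6.77, 5.29 and 25.1 CPM in RepB, against 13.3, 3.66, 3.75, 2.76, 6.83 and 21.3 CPM in WT. Its level passed that of day 0 only at day 10, and over days 5 to 10 it was lower (log2 -0.66 ± 0.22 SE, adjusted p = 0.0197), a call lost without day 7. Phlda2, which restrains placental growth, had 22.98, 8.49, 15.3, 23.9, 15.9 and 18.2 CPM in RepB, against 28.3, 6.24, 7.36, 17.1, 18.4 and 22.8 CPM in WT, and was lower overall (log2 -0.78 ± 0.19 SE, adjusted p = 0.00304), with RepB at day 7 as the exception.

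At the edges of that domain, Cd81, a tetraspanin gene, had 238, 167, 176, 186, 244 and 329 CPM in RepB, against 259.5, 154, 140.5, 155, 239 and 302 CPM in WT, and was lower overall (log2 -0.24 ± 0.09 SE, adjusted p = 0.0314). Its level at day 10 was nevertheless the highest of either line's course, and the call was lost without day 5, 6 or 7 and without the low-count filter. Nap1l4, a nucleosome assembly protein gene, had 172, 202, 236, 204, 199 and 167 CPM in RepB, against 174, 208, 215, 213, 233 and 177 CPM in WT. Tssc4 had 29.9, 29.4, 32.4, 29.1, 42.6 and 34.2 CPM in RepB, against 28.7, 28.9, 30.7, 32.6, 47.1 and 38.04 CPM in WT. Both were slightly higher over days 5 to 10, at log2 0.30 ± 0.10 SE (adjusted p = 0.014) and 0.28 ± 0.11 (adjusted p = 0.0382). Leaving out day 6 ended both calls, and that of Tssc4 was also lost without day 8 or 10, with size factors in place of TMM and by DESeq2.

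Peg3 and Usp29, divergent paternal genes that share the start region printed above, rose together. Peg3, a zinc-finger protein gene, had 234, 612, 1951, 4103, 3790 and 4482 CPM in RepB, against 232, 527, 1974, 4018, 1775 and 4118 CPM in WT, in order of day. Usp29, of the ubiquitin peptidase family, had 9.85, 17.2, 36.97, 45.2, 48.96 and 74.8 CPM in RepB, against 11.9, 12.3, 28.2, 40.3, 31.04 and 54.2 CPM in WT. Both were above day 0 in all 10 later libraries, and in WT both were lower at day 8 than at day 7 (log2 3.31 ± 0.23 SE, adjusted p = 1.3e-07 for Peg3, and log2 1.74 ± 0.14 SE, adjusted p = 4.43e-07 for Usp29). Zim1, a maternally expressed zinc-finger gene beyond Peg3, stayed between 1.16 and 4.06 CPM in all libraries and was not called (log2 -0.31 ± 0.28 SE, adjusted p = 0.344).

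In the Snrpn cluster, Ndn had 30.5, 61.5, 70.1, 77.7, 191 and 345 CPM in RepB, against 21.7, 60.8, 64.8, 75.8, 155 and 283 CPM in WT, in order of day. Its level was above day 0 in all 10 later libraries (log2 2.18 ± 0.12 SE, adjusted p = 2.22e-08). Magel2 followed another course, with 1.38, 149, 88.6, 48.1, 23.6 and 11.2 CPM in RepB, against 1.01, 171, 192, 88.98, 32.97 and 11.3 CPM in WT. It was highest at day 5 in RepB and at day 6 in WT, and declined in both lines to 11.2 CPM in RepB and 11.3 CPM in WT at day 10, still above its day 0 level of 1.38 CPM (21 counts) in RepB and 1.01 CPM (17 counts) in WT (log2 5.54 ± 0.28 SE, adjusted p = 1.12e-08). Peg12 had 9.98, 7.17, 20.8, 26.9, 31.4 and 31.2 CPM in RepB, against 10.2, 5.12, 20.6, 31.6, 43.2 and 38.7 CPM in WT, and Ube3a had 78.7, 112, 112, 101, 81.8 and 99.6 CPM in RepB, against 95.4, 88.4, 98.3, 99.03, 81.5 and 111 CPM in WT. Peg12 rose (log2 1.15 ± 0.16 SE, adjusted p = 5.12e-05), and Ube3a was not called (log2 0.24 ± 0.11 SE, adjusted p = 0.0675), except without day 8. Snrpn had 0 to 5 counts in a library, and the overlapping Snurf, listed 1 base away, had 39 counts over the 12 libraries, so neither can be read.

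Peg10, Sgce and Asb4 on chromosome 6 rose. Peg10 had 644, 1106, 2576, 7252, 6902 and 6906 CPM in RepB, against 739, 822, 2318, 6257, 4640 and 7360 CPM in WT, in order of day (log2 2.46 ± 0.15 SE, adjusted p = 5.16e-08). Sgce had 15.95, 42.3, 85.3, 111, 207 and 237 CPM in RepB, against 25.2, 39.95, 65.4, 90.2, 195 and 260.5 CPM in WT (log2 2.51 ± 0.14 SE, adjusted p = 1.62e-08). Both were above day 0 in all 10 later libraries. The 9 trophoblast markers summed to 147 CPM at day 0 and 1721 CPM at day 8 in RepB, against 143.5 and 1341 CPM in WT. Hand1 alone stood at 1474 CPM in RepB and 1002 CPM in WT at day 8. Tfap2c instead fell from 116 CPM at day 0 to 30.6 CPM at day 8 in RepB, and from 115 to 17.3 CPM in WT. Elf5 reached at most 0.378 CPM and Tpbpa at most 0.588 CPM in any library. The part of the trophoblast markers in the level of Peg10 was not tested. Asb4 had 2.10, 0.189, 20.5, 77.4, 33.1 and 52.3 CPM in RepB, against 1.54, 0.675, 18.6, 57.7, 33.5 and 57.2 CPM in WT. It was at 1 count in RepB and 12 counts in WT at day 5 and reached its highest level at day 7 in both lines (log2 3.29 ± 0.24 SE, adjusted p = 1.78e-07, a call lost when libraries were thinned to equal depth). Mest, on the other side of the strain change, had 169, 243, 405, 1502, 3257 and 2555 CPM in RepB, against 188, 300.2, 424, 1298, 3274 and 2738 CPM in WT. It was above day 0 in all 10 later libraries, most at day 8 (log2 2.64 ± 0.13 SE, adjusted p = 9.38e-09), while Copg2 had 113, 102.9, 96.7, 90.1, 73.4 and 87.6 CPM in RepB, against 140, 114, 103.1, 89.96, 98.9 and 96.3 CPM in WT, and was lower (log2 -0.35 ± 0.10 SE, adjusted p = 0.00681). Copg2 overlaps Mest, and without a stated strand setting its count is uncertain.

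Igf2r and Airn, an overlapping pair, moved in opposite directions. Igf2r, the receptor that clears IGF2 protein and is known as maternally expressed, had 313, 166, 117, 107, 67.9 and 58.5 CPM in RepB, against 341, 189, 145, 118.8, 49.5 and 73.4 CPM in WT, in order of day. It was below day 0 in all 10 later libraries (log2 -1.64 ± 0.12 SE, adjusted p = 2.29e-07). Airn, the paternal noncoding RNA that overlaps and silences Igf2r, rested on 3 counts in RepB and 4 in WT at day 0 and had 0.197, 0.566, 0.717, 8.13, 18.6 and 33.4 CPM in RepB, against 0.237, 0.281, 0.625, 9.16, 15.8 and 29.4 CPM in WT. It rose (log2 4.24 ± 0.36 SE, adjusted p = 7.54e-07), with nearly all of its counts from day 7 on. At day 5 Airn had 3 counts in RepB and 5 in WT. The part of Airn in the level of Igf2r was not tested. The genes overlap on opposite strands, so both values are uncertain. Grb10, an adaptor that restrains insulin and IGF signalling, fell furthest. It had 101, 8.12, 6.59, 5.19, 3.34 and 3.74 CPM in RepB, against 100.4, 5.91, 4.16, 1.78, 1.67 and 3.04 CPM in WT (log2 -4.61 ± 0.13 SE, adjusted p = 1.87e-10). At day 5, when Grb10 was first low, the summed fibroblast markers were at 66.3 CPM, against 1036 CPM at day 0, in RepB, and at 83.4 CPM, against 934 CPM at day 0, in WT. Day 0 cells were grown on feeder fibroblasts, and the part of feeder RNA in the day 0 level was not tested. At day 10, with feeders removed, the marker sum was above that of day 0 in both lines, so it does not measure feeder cells alone.

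The maternal noncoding RNAs of chromosome 12 rose together. Meg3 had 295, 959, 750, 860.5, 1779 and 3654 CPM in RepB, against 278, 883, 997, 1015, 1930 and 3231 CPM in WT, in order of day (log2 2.32 ± 0.14 SE, adjusted p = 4.22e-08). Rian had 98.3, 255, 248, 216, 366 and 541 CPM in RepB, against 113, 283, 308, 273, 269.7 and 525 CPM in WT, and Mirg had 20.6, 62.5, 55.3, 45.8, 75.4 and 108 CPM in RepB, against 17.2, 69.8, 63.99, 51.96, 79.9 and 108 CPM in WT. All 3 were above day 0 in the 10 later libraries, with log2 1.64 ± 0.16 SE (adjusted p = 2.33e-06) for Rian and 1.95 ± 0.12 (adjusted p = 4.12e-08) for Mirg. Dlk1, the paternal gene of this domain and a membrane ligand of the Notch family, had 11.5, 3.96, 5.59, 5.42, 40.1 and 197 CPM in RepB, against 10.6, 4.05, 4.65, 8.63, 38 and 180.4 CPM in WT. Unlike the 3 RNAs it was below day 0 at days 5, 6 and 7, and its call (log2 0.62 ± 0.15 SE, adjusted p = 0.003) was lost without day 8 and without day 10, when the change was log2 -0.29. Plagl1, a zinc-finger transcription factor gene, had 81.5, 25.3, 27.4, 18.7, 240.1 and 2555 CPM in RepB, against 72.3, 22, 36.99, 23.7, 56.3 and 2330 CPM in WT. It was above day 0 at days 8 and 10 in RepB and at day 10 alone in WT and was not called (log2 0.30 ± 0.33 SE, adjusted p = 0.462), and without day 10 it was lower, at log2 -0.90 (adjusted p = 0.0444). For Dlk1 and Plagl1, as for Igf2, the fibroblast marker sum was lowest at day 5 and highest at day 10, and its part was not tested.

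Single imprinted genes elsewhere mostly rose. Nnat had 7.62, 86.6, 134, 104, 219.5 and 534 CPM in RepB, against 11.4, 119.8, 181, 161, 236 and 535 CPM in WT, in order of day (log2 4.42 ± 0.18 SE, adjusted p = 1.81e-09). Gnas had 325, 638, 739, 1078, 1647 and 2143 CPM in RepB, against 319, 743, 936, 1163, 1639 and 2089 CPM in WT (log2 1.93 ± 0.12 SE, adjusted p = 5.78e-08). Impact, a regulator of the GCN2 kinase, had 182, 399, 356, 289, 319 and 296 CPM in RepB, against 211, 303, 318, 267, 289 and 267 CPM in WT (log2 0.72 ± 0.10 SE, adjusted p = 4.51e-05). These 3 were above day 0 in all 10 later libraries. Slc38a4, an amino acid transporter gene, had 273, 208, 336, 659.8, 689 and 789 CPM in RepB, against 346, 239.9, 299.8, 595, 568 and 848 CPM in WT (log2 0.68 ± 0.12 SE, adjusted p = 0.000319), and it was below day 0 at day 5. Inpp5f had 39.4, 59.1, 51.2, 58.3, 73.2 and 71.8 CPM in RepB, against 51.6, 60.5, 52.05, 57.8, 53.6 and 66.1 CPM in WT (log2 0.48 ± 0.12 SE, adjusted p = 0.00476). Zrsr1, a splicing factor gene within an intron of Commd1 and with a near copy on the X, had 44.8, 54.9, 48.9, 42.9, 54.8 and 54.7 CPM in RepB, against 36.1, 43.9, 43.1, 44.3, 49.6 and 57.4 CPM in WT. Its call (log2 0.35 ± 0.11 SE, adjusted p = 0.0149) was lost by DESeq2 and after thinning, and its count is uncertain because of the copy and the host gene.

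**Figure D3:**
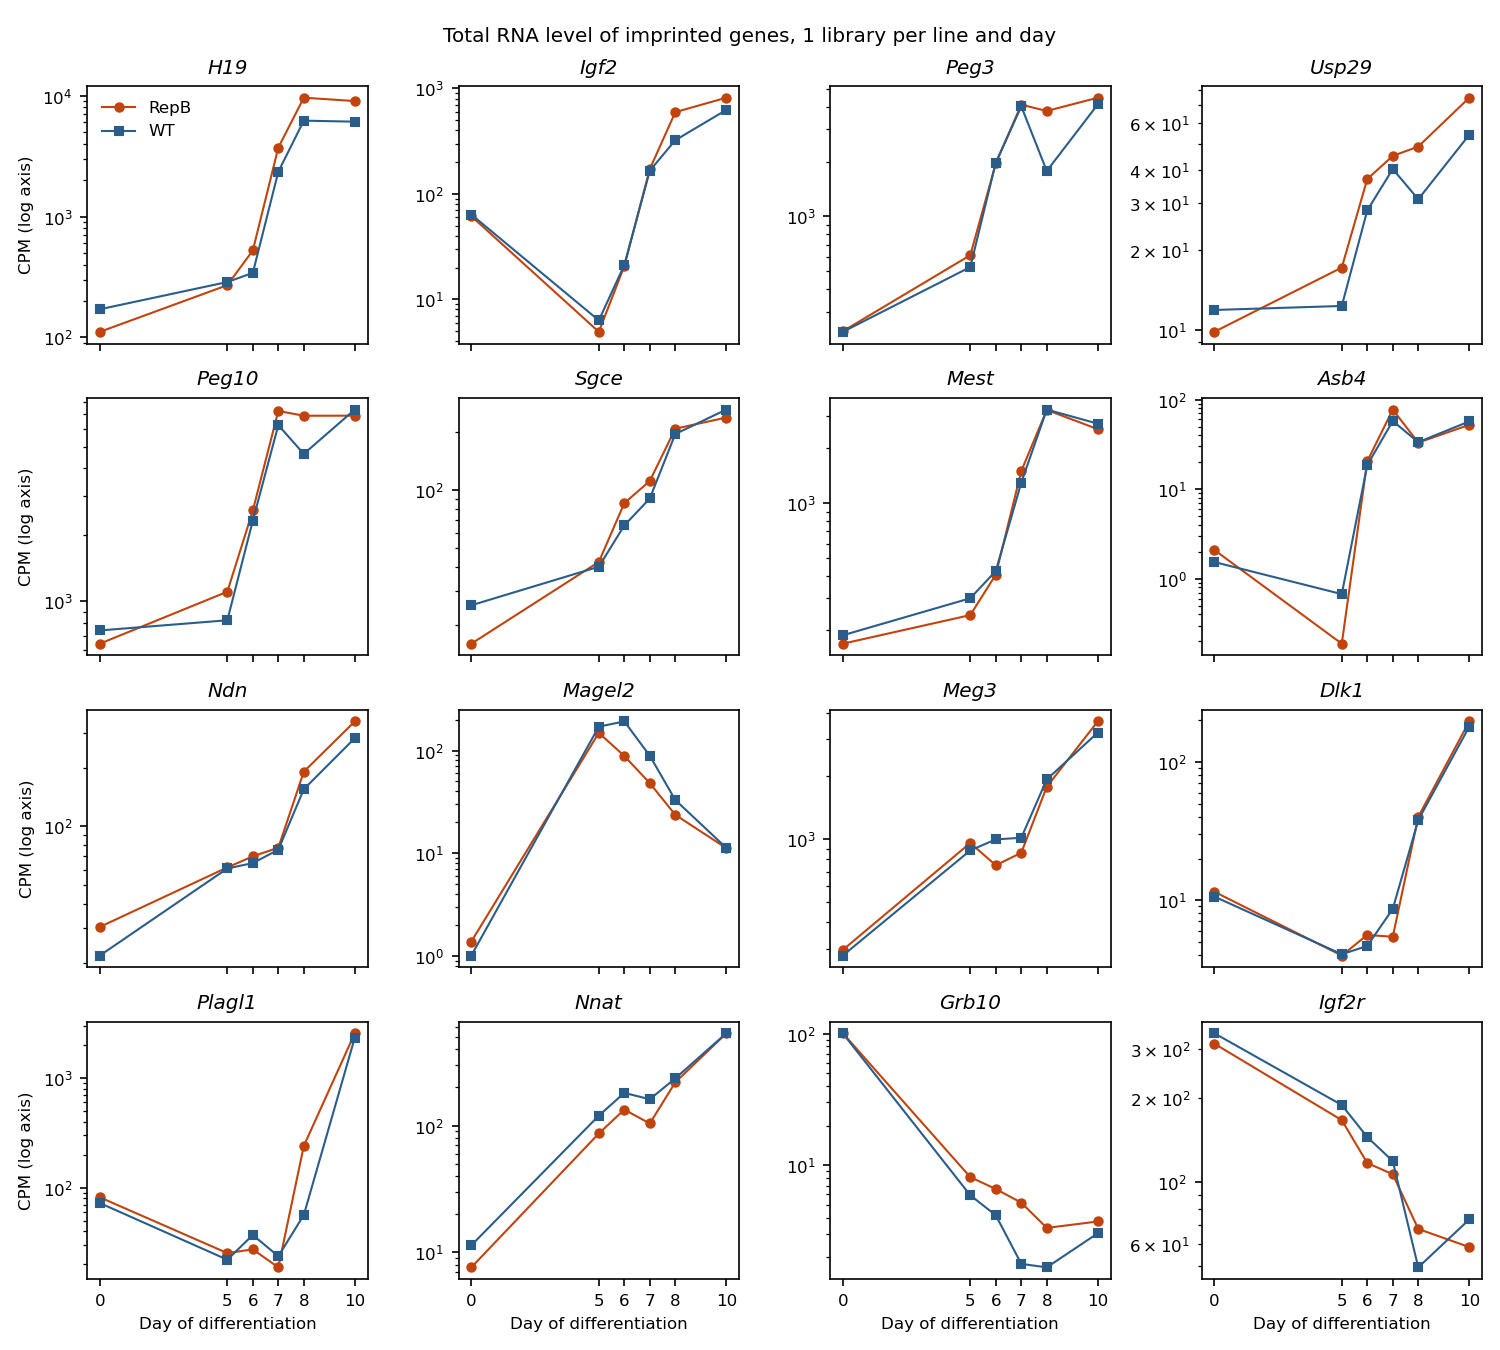
The level in CPM on a log axis (y) against the day of differentiation (x) for 16 imprinted genes, with 1 point per library, circles for RepB and squares for WT. H19, Peg3, Peg10, Mest, Meg3 and Nnat are higher on all later days than at day 0 in both lines, Igf2, Dlk1 and Plagl1 dip at day 5 before their peak at day 10, Magel2 peaks at day 5 in RepB and day 6 in WT, and Grb10 and Igf2r are lower on all later days.

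H19 and Usp29 were the imprinted genes called between RepB and WT. Over days 5 to 10, 2 of the 35 genes tested were higher in RepB by edgeR's quasi-likelihood test, and 0 were lower. Over all genes 2.28% were called in either direction, 1.51% as higher in RepB and 0.771% as lower. The median log2 RepB over WT of the 35 genes was 0.12, against 0.00 over all genes tested, with 22 genes above 0, 13 below and a range of -0.58 (Magel2) to 0.73 (Grb10). An unadjusted p under 0.05 was reached by 10 of the 35, and by 15.0% of all genes tested. H19 averaged 4628 ± 4494 CPM in RepB and 3055 ± 2944 CPM in WT over days 5 to 10 (SD over 5 days that differ in level, log2 0.51 ± 0.11 SE, adjusted p = 0.0398), and it was higher in RepB on 4 of 5 days. At day 0 H19 was instead lower in RepB (log2 -0.62), and at day 5 it was 270.5 CPM in RepB and 287 CPM in WT. Usp29 averaged 44.6 ± 20.8 CPM in RepB and 33.2 ± 15.5 CPM in WT (log2 0.45 ± 0.10 SE, adjusted p = 0.0442) and was higher on 5 of 5 days, though lower at day 0 (log2 -0.26). Without day 6, 7 or 10 neither call held, and without day 5 the call of Usp29 was lost. The fibroblast marker sum was higher in RepB on 4 of 5 days and the ES cell marker sum on 5 of 5, and their part in these differences was not tested.

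Among genes not called, Grb10 was higher in RepB on 5 of 5 days (log2 0.73 ± 0.19 SE, adjusted p = 0.072), from 3.34 to 8.12 CPM in RepB and from 1.67 to 5.91 CPM in WT. Cdkn1c was higher on 4 of 5 days (log2 0.68 ± 0.22 SE, adjusted p = 0.152), with day 8 as the exception. Magel2 was lower in RepB on each day (log2 -0.58 ± 0.15 SE, adjusted p = 0.068), and the gap was widest at day 6, with 88.6 CPM in RepB and 192 CPM in WT. By day 10 it was 11.2 CPM in RepB and 11.3 CPM in WT. Nnat was also lower on 5 of 5 days (log2 -0.30 ± 0.10 SE, adjusted p = 0.183) and already lower at day 0 (log2 -0.55). Peg3 (log2 0.31 ± 0.15 SE, adjusted p = 0.357), Peg10 (log2 0.28 ± 0.10 SE, adjusted p = 0.224) and Igf2 (log2 0.31 ± 0.15 SE, adjusted p = 0.354) had their largest ratio at day 8, when Peg3 stood at 3790 CPM in RepB and 1775 CPM in WT. DESeq2, and edgeR without the low-count filter, each called Grb10 as higher and Magel2 as lower besides H19 and Usp29, and edgeR without day 8 called Cdkn1c as higher and Magel2 and Nnat as lower.

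**Figure D4:**
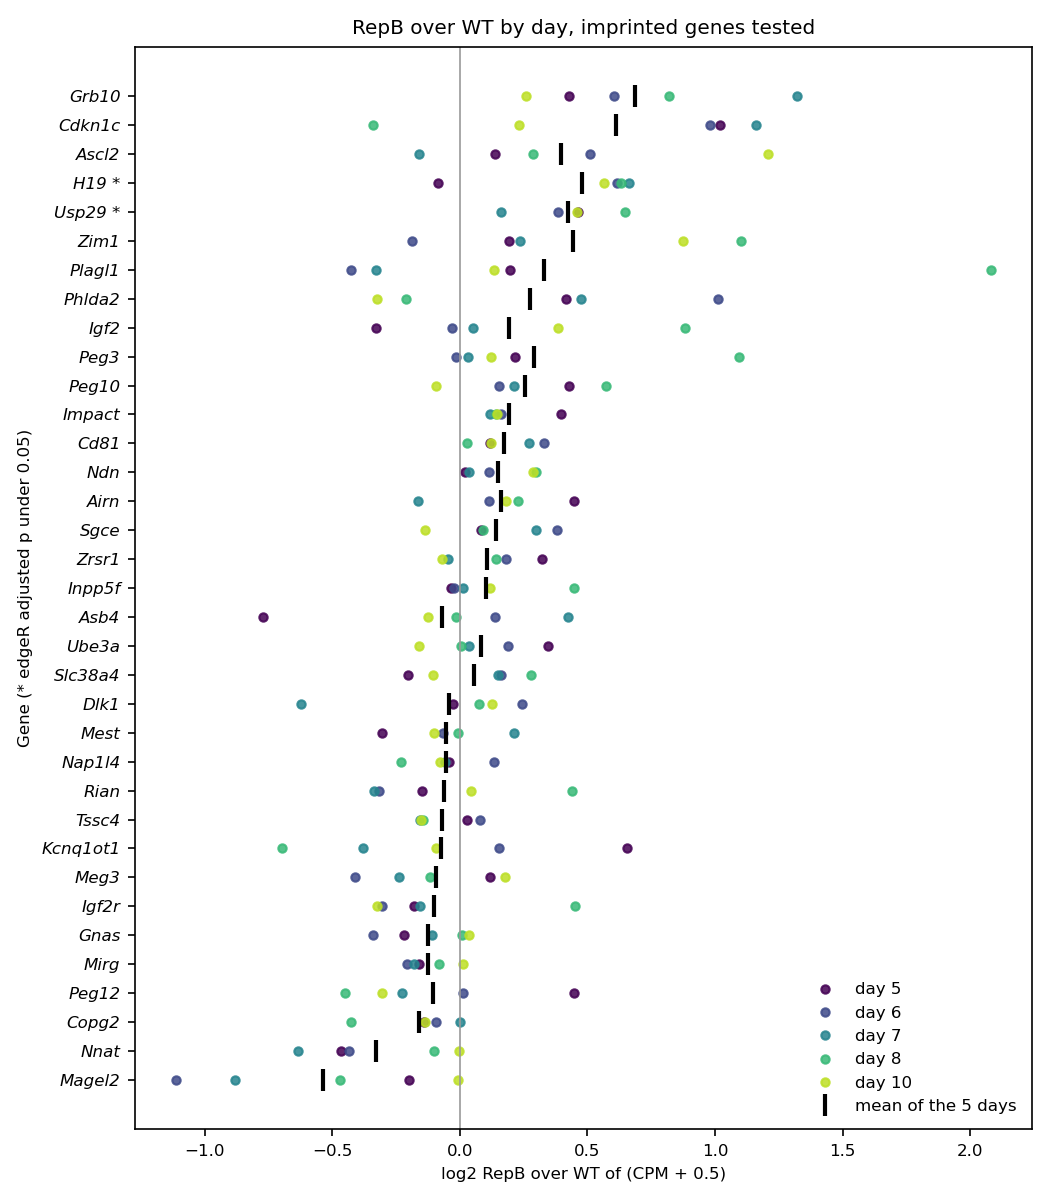
The log2 ratio of RepB over WT of CPM + 0.5 (x axis) for the 35 imprinted genes tested (y axis, ordered by the fitted difference), with 1 point per day coloured by day and a bar at the mean of the 5 days. H19 and Usp29, marked with a star, are the genes past the adjusted threshold, while Magel2 has its lowest ratios at days 6 and 7 and Plagl1 its highest at day 8.

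The change from day 0 was not called as different between RepB and WT for any imprinted gene. By edgeR 0 of 35 passed (background 0.0329%), with a lowest adjusted p of 0.327, and 3 had an unadjusted p under 0.05, namely H19, Usp29 and Sgce, against 8.86% of all genes tested. DESeq2 called 0 as well. The median difference of the changes was log2 0.15 over the 35 genes and -0.01 over all genes tested. Day 0 is 1 library per line, so that a difference at day 0, such as that of H19, enters every change.

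A further 43 imprinted genes, such as Kcnq1, Slc22a3 and Sfmbt2, gave no call between the lines. Of these 42 were found and 30 tested. Between RepB and WT 0 passed by edgeR over days 5 to 10, 7 of 30 had an unadjusted p under 0.05 (15.0% of all genes tested), and the median log2 was 0.06. Against day 0, 8 were higher and 11 lower over days 5 to 10, where 64.1% of all genes were called. By the rule used above, 7 of them in RepB and 9 in WT lay in both-strain regions with at least 50 allelic counts, and 0 in either line was monoallelic, with pooled cas shares of 34.9% to 63.4% in RepB and 16.7% to 75.6% in WT. Over all genes tested between the lines, 1.51% were called higher in RepB and 0.771% lower over days 5 to 10. Of 16 genes that set, keep or help to erase imprints, 3 were higher in RepB and 0 lower. These were Dppa3, which protects maternal methylation in the zygote (33.7 CPM in RepB and 18.5 CPM in WT on average, log2 0.91 ± 0.18 SE, adjusted p = 0.024), Dnmt3l, a cofactor of de novo methylation (106 CPM in RepB and 62.9 CPM in WT, log2 0.78 ± 0.12, adjusted p = 0.00691), and Naa10, an acetyltransferase (110.5 CPM in RepB and 81.8 CPM in WT, log2 0.45 ± 0.10, adjusted p = 0.0391). The call of Dnmt3l was lost without day 7 (adjusted p = 0.0541), that of Dppa3 without day 6, 7 or 10 (0.0802 to 0.135) and after thinning, and that of Naa10 without day 5, 6, 7 or 10 (0.109 to 0.196) and after thinning. All 3 were lost with 1 genotype effect over all days. Naa10 lies on the X chromosome, and the part of X silencing in its difference was not tested. The summed ES cell markers, which were lower on later days than at day 0 as Dnmt3l was on average (106 CPM, against 278 CPM at day 0, in RepB, and 62.9 CPM, against 334 CPM, in WT), were also higher in RepB on 5 of 5 days, and their part in these 3 differences was not tested. Zfp57 and Trim28, which encode a reader of methylated imprints and its corepressor, were not called between the lines. Both were lower over days 5 to 10 than at day 0, Zfp57 at 114 CPM against 480 CPM at day 0 in RepB and 97.3 against 351 CPM in WT (log2 -1.90 ± 0.09, adjusted p = 3.74e-09), and Trim28 at 998 against 1491 CPM in RepB and 1097 against 1190 CPM in WT (log2 -0.31 ± 0.09, adjusted p = 0.00848). In all, 4 of the 16 were higher and 7 lower than at day 0, beside the same 64.1% of all genes. The 7 include Tet1 (log2 -2.805) and Tet2 (log2 -3.061), which encode enzymes that act to remove DNA methylation.

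The genes most like H19 in their course included another imprinted gene. By Pearson correlation of log2(CPM + 0.5) over the 12 libraries, among 15178 genes, Mest was closest (r = 0.991), followed by Capn6 (0.987), Tbx20 (0.986), Dok4 (0.986) and Spink1 (0.985). These points share libraries, depth and a common time course, and no test was made of them. Mest was at 169 CPM at day 0 and 3257 CPM at day 8 in RepB, against 188 and 3274 CPM in WT, and Capn6, an X-linked gene, was at 4.92 CPM at day 0 and 205 CPM at day 8 in RepB, against 4.32 and 131 CPM in WT.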

How the data were processed

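PolyA RNA was sequenced with a directional kit, per the labels' protocols. The authors deposited total counts per gene, without normalization, and separate cas and mus counts. The submitters' processing notes name featureCounts, bedtools, SAMtools, TopHat, Novoalign and the build mm9, and give no versions. The strand setting is not given in the sources used here. In the table, 6 count columns matched no RNA sample and were not used, and 21 ChIP and input samples were not analysed here.

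CPM divides a count by its library total. Counts were fitted in R 4.3.3 with edgeR 4.0.16 (TMM, filterByExpr, quasi-likelihood test, 4 residual degrees of freedom), with day as a factor and genotype effects at day 0 and over days 5 to 10. DESeq2 1.42.0 was an alternative. Alleles were fitted on cas and mus counts with library as block, for the 10332 genes that averaged 20 or more allelic counts. P-values were adjusted by Benjamini-Hochberg over all genes, with a threshold of 0.05. They measure steadiness over the days of 1 time course per line. The fits were tested on simulated data. The common dispersion was 0.015. Intervals are exact Clopper-Pearson 95%, and they and the floor of 3 counts cover counting error only. The 36 genes and all lists were chosen with earlier results of these data known. By rule, values in every library are given for genes past a threshold or judged for alleles.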

Additional observations from a re-analysis of the deposited data

How the results depend on the processing

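Leaving out 1 day at a time, the number of imprinted genes called between RepB and WT over days 5 to 10 ranged from 0 (without day 6, 7 or 10) to 5 (without day 8), and was 1 (H19) without day 5. It was 4 without the low-count filter and 4 by DESeq2 (H19, Usp29 and Grb10 higher, Magel2 lower), and 0 with 1 genotype effect over all days. It stayed at 2, the same genes, with DESeq2 size factors and after thinning to equal depth. Over all genes the count of 346 was 216, 81, 38, 744 and 134 without day 5, 6, 7, 8 or 10. The cause of these moves was not tested.

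No paired analysis was possible because the labels give no replicate numbers beyond the day, which the fit already holds. Without the day term (no replicate block) the count was 0, since differences between days then count as spread.

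Against day 0, 32 genes were called with all days, and 29 to 31 under each of the 9 alternatives. Without day 10 the log2 change was -0.11 for Igf2, -0.29 for Dlk1 and -0.90 for Plagl1, on the other side of 0 from the values with all days, and leaving out other days gave up to 1.58, 1.08 and 0.80 for these genes in that order. With neighbours within 5 Mb, 2 genes (Mest and Copg2) were counted as monoallelic in RepB and 2 in WT, because the smaller window drops more of the genes past Mest, which carry mus, than of those before it, so that its median passes 25%. The count was 0 in both lines under the other 5 alternatives, 1 of which, the 3 nearest genes on each side, was chosen after seeing the data. Of 116 alternative values of allelic log2 odds, 0 passed the threshold. Low allelic depth, 68 counts for Gnas in RepB, limits what could be seen.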
